A study of Rattus norvegicus with 4 samples.

Results

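The comparison described here set small RNAs of rat vascular smooth muscle cells treated with angiotensin II (Ang II) for 3 h against those of untreated cells. It used 2 of the 4 libraries of the series, chosen by their treatment labels. The cells came from the aorta of Sprague-Dawley rats, were grown in M199 medium with serum, and all were held without serum for 48 h. The cells of 1 library then received 100 nM Ang II for 3 h, and the control received none and carries no time. The library from cells given 100 nM Ang II for 1 h is quoted beside the results and is compared with the same control, and the library at 24 h was not analysed here. How many animals or cultures stood behind a library, and the passage of the cells, are not given in the sources used here. With 1 library a side, no difference below has a replicate check, and Ang II cannot be told apart from time in culture.

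Reads with a sequence numbered 14395539 in the control library, 14370167 at 3 h and 13119417 at 1 h. Levels are these reads scaled to 1000000 per library (RPM). A read was given to a miRNA arm if its first 18 bases were identical to a RefSeq hairpin at a start within 3 nt of the annotated one. Such reads made up 72.5% of the control library, 78.1% at 3 h and 76.5% at 1 h. Parentheses give exact 95% intervals, which cover counting error alone because copies made by PCR are counted as if independent. The arms of miR-143 and miR-145, which mark smooth muscle, gave a summed level of 261076 RPM without Ang II and of 323717 RPM at 3 h. Arms marking endothelium summed to 144.6 and 151 RPM, those of blood and immune cells to 222 and 213 RPM, those of striated muscle to 165 and 131 RPM, and those of epithelium to 5.14 and 5.43 RPM. Of the 10 blood and immune arms and the 11 epithelial arms, 5 each had no read in either library.

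A miRNA is cut from a hairpin whose stem yields a 5p and a 3p arm joined by a loop, and Dicer makes the last cut that removes the loop. One arm is usually kept by Argonaute as the guide while the other is lost, and the seed, the bases 2 to 8 of the guide, largely sets which mRNAs it binds. The ends of a mature miRNA vary, because cuts shift, ends are trimmed and single A or U bases are added at the 3' end. Ang II acts on smooth muscle cells through a G protein-coupled receptor and drives contraction, growth and synthesis of matrix.

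The arms on which the results turn are shown with the seed in capitals, from RefSeq (build GRCr8), so that families sharing a seed can be seen. The first 7 were higher at 3 h, the next 4 are partners or relatives of these, and the last 6 belong to the miR-181 family.
miR-129-5p: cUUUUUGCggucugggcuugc
miR-132-3p: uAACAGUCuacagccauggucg
miR-21-3p: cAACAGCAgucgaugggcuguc
miR-221-5p: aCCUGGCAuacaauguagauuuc
miR-222-5p: gGCUCAGUagccaguguagau
miR-7a-5p: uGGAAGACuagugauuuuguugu
miR-29b-3p: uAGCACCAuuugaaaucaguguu
miR-212-3p: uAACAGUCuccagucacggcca
miR-221-3p: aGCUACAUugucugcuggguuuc
miR-222-3p: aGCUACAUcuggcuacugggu
miR-21-5p: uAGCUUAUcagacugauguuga
miR-181a-5p: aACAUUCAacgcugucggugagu
miR-181b-5p: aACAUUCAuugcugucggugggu
miR-181c-5p: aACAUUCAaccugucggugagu
miR-181d-5p: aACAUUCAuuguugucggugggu
miR-181a-1-3p: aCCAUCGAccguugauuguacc
miR-181c-3p: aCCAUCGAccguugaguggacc

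The miR-221 and miR-222 hairpins lie next to each other, with miR-222-5p at chrX:6022642-6022662 and miR-221-5p at chrX:6023206-6023228 on the plus strand, inside 2 RefSeq lncRNA genes. The miR-132-3p arm is at chr10:60522091-60522112 and miR-212-3p at chr10:60521811-60521832, both on the plus strand and in no other listed gene. The miR-21-3p arm is at chr10:71902615-71902636 on the minus strand. The miR-181a-1-3p arm at chr13:52037121-52037142 and miR-181b-5p at chr13:52037263-52037285 share the plus strand of 1 lncRNA gene. miR-7a-5p, miR-29b-3p, miR-129-5p and miR-181a-5p each have 2 listed hairpins with the same mature sequence, and reads cannot be divided between them.

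Of 186 arms with 100 reads in the higher library, 7 were at least 1.5-fold higher at 3 h (3.76%) and 8 at least 1.5-fold lower (4.3%). The call was made on log2(RPM + 1), and the median of all 186 arms lay at -0.05 on that scale, with 76 arms above 0. Scaled to the reads of miRNA arms instead, 5 arms were higher and 17 lower, and with median-of-ratios factors 11 and 8. The plot of arms in both libraries shows most arms near the diagonal, from the least read to the most read.

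**Figure D1:**
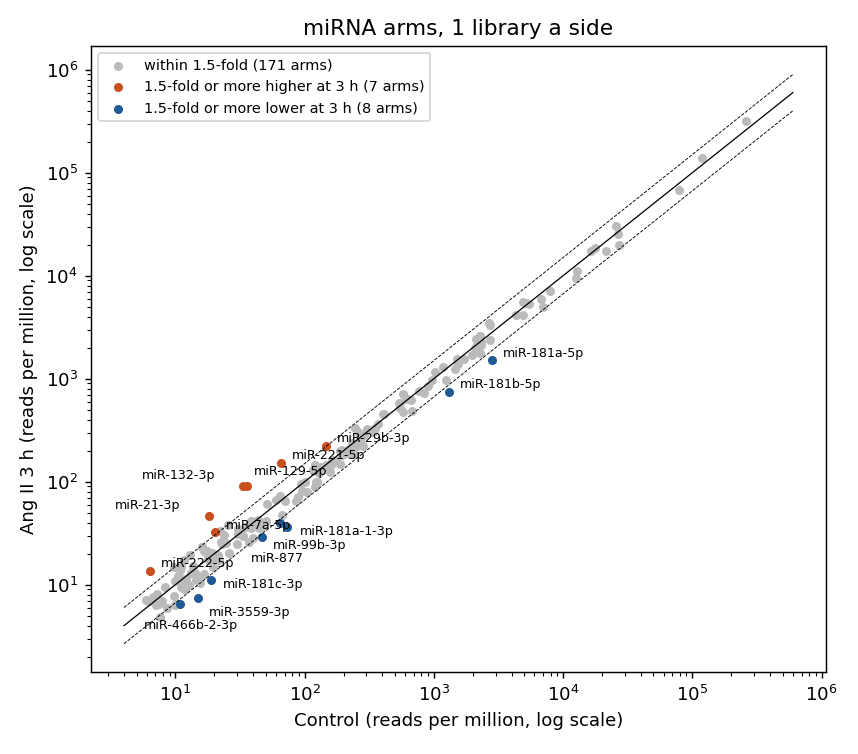
Each point is 1 of 186 miRNA arms, with its level in the control (x axis, RPM, log scale) and at 3 h of Ang II (y axis, RPM, log scale). The solid line marks equal levels and the dashed lines 1.5-fold; the 7 orange arms are higher and the 8 blue arms lower at 3 h.

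Among arms of the CREB-induced cluster of miR-132 and miR-212, miR-132-3p had 512 reads in the control, 1308 at 3 h and 429 at 1 h. Its level was thus 2.56 times the control at 3 h (2.31 to 2.84), while at 1 h it lay at 0.919 times (0.807 to 1.05). It was the sole arm of the list with 100 reads. Its relative miR-212-3p, which has the same seed, had 29 reads in the control, 60 at 3 h and 32 at 1 h, a fold of 2.07 at 3 h (1.31 to 3.35). miR-212-5p went from 6 to 38 reads (fold 6.34, 2.66 to 18.4), with 16 at 1 h, and miR-132-5p from 10 to 20 (fold 2.00, 0.895 to 4.79). All 4 arms of the cluster were above the control at 3 h, 3 of them on fewer than 100 reads.

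Of 13 tested arms of the list for the dividing, matrix-producing state of smooth muscle, 3 were past 1.5-fold higher, 0 were lower, and 10 lay above 0 (8 when scaled to the reads of miRNA arms). The median log2 ratio was 0.24 against -0.05 over all arms. The 3 were the rarer arms of miR-21, miR-221 and miR-222, small RNAs that in their main forms promote growth of smooth muscle. miR-21-3p had 262 reads in the control, 667 at 3 h and 611 at 1 h, 2.55 times the control at 3 h (2.21 to 2.95). miR-221-5p had 945, 2205 and 1764 reads in the same order, a fold of 2.34 at 3 h (2.16 to 2.53). miR-222-5p had 92, 195 and 94 reads, a fold of 2.12 at 3 h (1.65 to 2.75). The first 2 were thus already high at 1 h, whereas miR-222-5p at 1 h was near the control. The main arms of the same hairpins stayed near the control: miR-21-5p had a fold of 1.18 (1.176 to 1.181), miR-221-3p 0.943 (0.894 to 0.995) and miR-222-3p 0.909 (0.856 to 0.965). The other members lay between 0.857 for miR-146a-5p (0.792 to 0.927) and 1.48 for miR-31a-3p (1.29 to 1.69). Of these, miR-24-1-5p stood at 1.43 (1.21 to 1.70), miR-31a-5p at 1.23 (1.19 to 1.27), miR-26a-5p at 1.13 (1.10 to 1.15), and miR-24-2-5p and miR-24-3p both at 1.06.

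The remaining 3 higher arms belong to different families. miR-129-5p had 482 reads in the control, 1313 at 3 h and 1189 at 1 h, a fold of 2.73 at 3 h (2.46 to 3.04), the largest of the tested arms. miR-7a-5p, known from neural and endocrine cells, had 290, 464 and 339 reads, a fold of 1.60 (1.38 to 1.86). It was the only called arm of the 9 in the list of neural and endocrine markers, whose summed level was 67.9 RPM untreated and 73.1 RPM after 3 h, with 4 of the 9 at 0 reads. miR-29b-3p, which represses collagens, had 2105 and 3217 reads, a fold of 1.53 (1.45 to 1.62). miR-7a-5p and miR-29b-3p were within 1.5-fold when scaled to the reads of miRNA arms. Its sister miR-29a-3p, with the same seed and a far higher level, had 33063 and 30767 reads, a fold of 0.932 (0.918 to 0.947), so arms with 1 seed lay on both sides of the control. miR-29c-3p had a fold of 1.28 (1.03 to 1.59) and miR-29a-5p 1.49 (1.29 to 1.72). miR-29b-5p and miR-29c-5p had 45 reads or fewer in either library.

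The miR-181 family, known for roles in immune signalling and vascular inflammation, held 4 of the 8 lower arms. miR-181a-5p, its most read member, had 40716 reads in the control, 21650 at 3 h and 25661 at 1 h, a fold of 0.533 at 3 h (0.524 to 0.542). miR-181b-5p had 18850, 10658 and 11542 reads, a fold of 0.566 (0.553 to 0.580). The passenger arm miR-181a-1-3p had 1060, 518 and 563 reads, a fold of 0.490 (0.440 to 0.544), and miR-181c-3p had 270, 158 and 181, a fold of 0.586 (0.479 to 0.716). In each of these 4 the 1 h library lay between the other 2. The other tested members had folds of 0.669 for miR-181a-2-3p (0.540 to 0.827), 0.839 for miR-181d-5p (0.797 to 0.884) and 0.914 for miR-181c-5p (0.775 to 1.08). All 7 tested arms were below 0, with a median of -0.72, and miR-181b-1-3p had 42 and 33 reads. Among the 4 arms with the seed ACAUUCA, the log2 ratio thus ran from -0.91 for miR-181a-5p to -0.12 for miR-181c-5p. Both the miR-181a-1 and the miR-181b-1 hairpin of chromosome 13 gave called arms, the latter by its 5p arm alone. No other listed hairpin has miR-181b-5p, but reads of any unlisted copy would be counted with it. Of the 3 arms of the miR-181c and miR-181d hairpins of chromosome 19 only miR-181c-3p was called. Reads of miR-181a-5p can also come from the miR-181a-2 hairpin of chromosome 3, whose 3p arm miR-181a-2-3p was not called.

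The other 4 lower arms were each read under 1000 times. miR-99b-3p had 933 reads in the control and 567 at 3 h (fold 0.609, 0.547 to 0.676), and lies in a cluster with miR-125a and let-7e whose 5 tested arms had a median log2 ratio of -0.42. miR-877, from an intronic hairpin cut without Drosha, had 669 and 417 reads (fold 0.624, 0.551 to 0.707). miR-3559-3p had 215 and 107 (fold 0.499, 0.392 to 0.632), and miR-466b-2-3p 156 and 94 (fold 0.604, 0.462 to 0.785). No arm of the contractile list was past 1.5-fold among 6 tested. miR-143-3p, which made up 25.8% of all control reads and 32.1% at 3 h, had a fold of 1.24 (1.242 to 1.245), and miR-143-5p of the same hairpin 0.910 (0.874 to 0.948). miR-145-5p stood at 0.972 (0.957 to 0.987), miR-145-3p at 0.823 (0.797 to 0.850), miR-1-3p at 0.817 (0.762 to 0.877) and miR-1b at 0.699 (0.611 to 0.800). miR-133a-3p had 10 and 22 reads.

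The most read arms and the larger families showed smaller shifts. The 10 most read arms ran from let-7b-5p at 0.729 (0.725 to 0.732) and miR-10a-5p at 0.797 (0.792 to 0.801) to miR-143-3p. let-7c-5p stood at 0.860, let-7a-5p at 0.9498 and let-7f-5p at 1.18, so members of the let-7 family with 1 seed went both ways. miR-24-3p and miR-30a-5p were each at 1.06, but under the control when scaled to the reads of miRNA arms (log2 ratio -0.03 for both), and miR-140-3p stood at 0.868. The medians of the miR-15/16 and miR-23/27/24 lists below also turned negative on that scale, and that of miR-30 turned positive with the other factors tried. By lists, no arm was called among 12 of let-7 (median log2 ratio -0.07), 5 of miR-30 (-0.01), 10 of miR-17-92 and its paralogs (-0.10), 9 of the miR-15/16 family (0.03), 9 of miR-23/27/24 (0.08), 3 of miR-10 (-0.33), 3 of miR-199 and miR-214 (-0.14) and 5 of miR-34 (0.13). Of 9 arms of miR-99, miR-100 and miR-125, 1 was lower (median -0.26). miR-320 and miR-484 had no arm with 100 reads.

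In the higher arms the most read form had a larger fold than the rest of the arm, though other forms were above the control too. For 6 of the 7 higher arms both the most read tag and the sum of all other tags had 100 reads, and in 6 of 6 the most read tag had the larger ratio. In these 6 that tag was also the most read one in the control alone. The difference had a median of 0.62 on the log2 scale, against 0.03 over 139 arms, of which 82 were above 0 and the middle 80% lay between -0.25 and 0.36. This comparison was chosen after the values had been seen. The most read tag is also part of the sum on which an arm was called higher, which favours this order. For miR-129-5p the annotated form had 387 reads in the control, 1207 at 3 h and 1102 at 1 h, a fold of 3.12 (2.78 to 3.51). All its other forms summed to 95, 106 and 87 reads, a fold of 1.12 (0.839 to 1.49). For miR-132-3p the annotated form had 286, 877 and 275 reads (fold 3.07, 2.69 to 3.52), against 1.91 (1.62 to 2.254) for the others. Within the latter, the form with 1 added U went from 70 to 138 reads, while the form shorter by 1 base had 52 and 48. For miR-21-3p the annotated form had a fold of 3.04 (2.50 to 3.73) and the others 2.04 (1.65 to 2.54).

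For miR-221-5p the rising form was not the annotated one. The tags of this arm are shown with the bases beyond the annotated 3' end in capitals, all of them present in the hairpin.
annotated form: acctggcatacaatgtagatttc
1 base longer: acctggcatacaatgtagatttcT
2 bases longer: acctggcatacaatgtagatttcTG
3 bases longer: acctggcatacaatgtagatttcTGT
The longest of these had 480 reads in the control, 1579 at 3 h and 1154 at 1 h, a fold of 3.30 (2.97 to 3.66). The form shorter by 1 base had 141, 259 and 228 reads (fold 1.84, 1.49 to 2.28), and the next shorter 80, 101 and 95 (fold 1.26, 0.934 to 1.72). The annotated form had 49, 30 and 40 reads (fold 0.613, 0.376 to 0.986), so the ratio was larger with each added base. A 26-nt tag with the same length but an untemplated last A had 41 and 35 reads. Counting only the RefSeq mature sequence would therefore turn the direction of this arm, to a log2 ratio of -0.51.

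miR-222-5p came in 2 registers, with starts 3 nt apart. The tags are shown with the bases that the later start lacks in capitals.
22-nt tag, annotated start: GGCtcagtagccagtgtagatc
23-nt tag, annotated start: GGCtcagtagccagtgtagatcc
22-nt tag, later start: tcagtagccagtgtagatcctg
Reads with the annotated start numbered 25 in the control, 132 at 3 h and 40 at 1 h, a fold of 5.29 (3.43 to 8.47). Reads that start 3 nt further in numbered 65, 53 and 51, a fold of 0.817 (0.557 to 1.19). The share of the annotated start was thus 27.2% in the control, 67.7% at 3 h and 42.6% at 1 h. A start moved by 3 nt gives the small RNA another seed. miR-7a-5p and miR-29b-3p showed the same order with smaller gaps. The most read form of miR-7a-5p, 1 base longer than annotated, had a fold of 1.77 (1.48 to 2.12) and its other forms 1.24 (0.935 to 1.65). The annotated form of miR-29b-3p had a fold of 1.63 (1.53 to 1.74) and its other forms 1.25 (1.12 to 1.40).

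**Figure D2:**
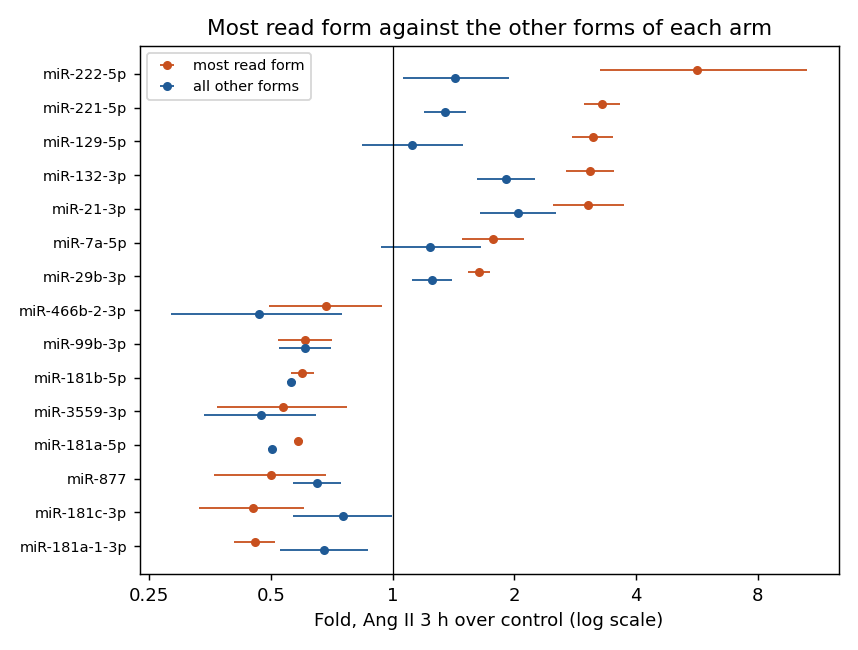
For each of the 15 arms past 1.5-fold, the fold at 3 h over the control (x axis, log scale) of its most read tag (orange) and of all its other tags together (blue), with exact 95% counting intervals. The 7 higher arms have the orange point to the right of the blue one, but for miR-222-5p the orange tag is the most read only through the 3 h library (15 reads in the control, 85 at 3 h), which fixes its order, and the 8 lower arms show no common order.

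Among the lower arms the order was mixed, with 3 of 6 testable arms above 0 and a median difference of -0.13. The annotated form of miR-181a-1-3p went from 899 to 409 reads (fold 0.456, 0.404 to 0.513) and its other forms from 161 to 109 (fold 0.678, 0.527 to 0.870). For miR-181a-5p the annotated form had a fold of 0.585 (0.570 to 0.601) and the others 0.503 (0.493 to 0.514). In miR-99b-3p both parts stood at 0.609. miR-466b-2-3p was read mainly from a start 3 nt inside the annotated one. The last 4 bases of its most read tag lie beyond the annotated 3' end and were not matched to the hairpin. Its name thus rests on the bases before them. Whether these reads come from another, similar RNA was not tested. Over all arms, 38 of 1406 single tags with 100 reads were past 1.5-fold higher (2.7%) and 136 lower (9.67%).

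The arm shares put the rises of rarer arms on a scale that no choice of total can move. Both arms come from 1 hairpin, and the share of the rarer arm was taken among the reads of both. Over 51 hairpins with 100 reads of the rarer arm, the log2 change of the rarer over the main arm had a median of 0.002, with 26 above 0. Past 1.5-fold were 4 hairpins in each direction (7.84% each). The rarer arm of Mir221 was 25.4% of them in the control (24.0 to 26.8), 45.7% at 3 h (44.3 to 47.2) and 44.1% at 1 h. That of Mir222 made up 3.84% (3.11 to 4.69), 8.54% (7.43 to 9.76) and 5.08%. That of Mir21 made up 0.0153% (0.0135 to 0.0173), 0.0331% (0.0307 to 0.0357) and 0.0380%. That of Mir29a, its 5p arm, had 0.959% and 1.52%. The fifth hairpin, Mir503, had 36.4% (31.2 to 41.9) and 46.1% (40.3 to 52.0) and stayed within 1.5-fold.

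In the other direction the 3p arm of Mir3559 had the largest change, from 22.6% (19.9 to 25.3) to 10.9% (9.03 to 13.03), with 14.8% at 1 h. Its main arm, miR-3559-5p, had 738 reads in the control and 874 at 3 h, so the arms of this hairpin lay on opposite sides of the control. miR-106b-3p had 8.92% (8.23 to 9.64) and 5.86% (5.32 to 6.44) of the reads of Mir106b. miR-181c-3p had 46.7% (42.6 to 50.9) and 35.99% (31.5 to 40.7), with 46.3% at 1 h. miR-1843a-3p, whose hairpin is listed under Scarna3, had 15.7% (13.1 to 18.7) and 10.9% (8.61 to 13.6). miR-34c-3p had 0.243% and 0.163%, within 1.5-fold.

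**Figure D3:**
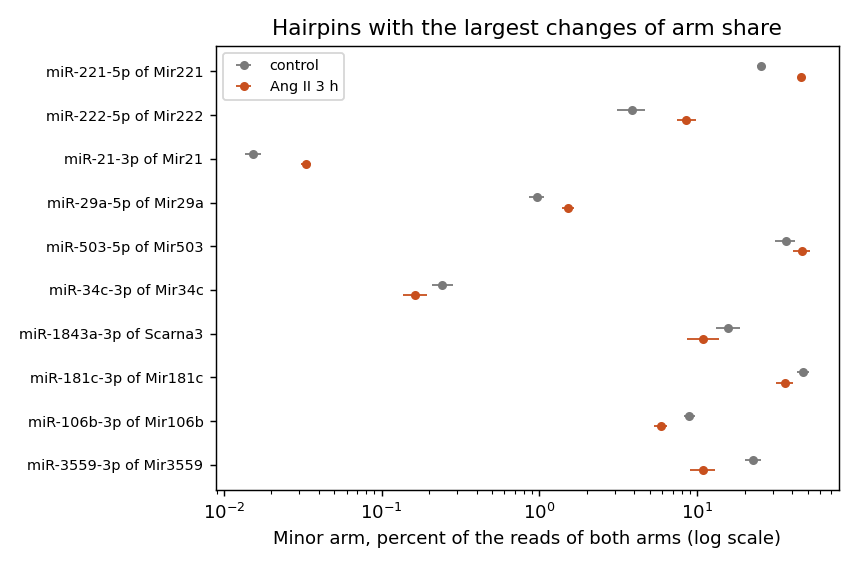
Share of the rarer arm among the reads of both arms (x axis, percent, log scale) in the control (grey) and at 3 h (orange), for the 5 hairpins with the largest rise and the 5 with the largest fall, with exact 95% binomial intervals. Mir221 goes from 25.4% to 45.7% and Mir3559 from 22.6% to 10.9%.

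The 3' ends of most arms did not move. Over 94 arms with 1000 reads in both libraries, the mean 3' end changed by a median of -0.00026 nt, and the middle 80% of arms lay between -0.048 and 0.045 nt. miR-31a-5p stood far outside this range, with a mean 3' end 2.86 nt beyond the annotated one in the control, 4.90 nt at 3 h and 6.34 nt at 1 h. Its tags of 30 nt or more made up 16.3% of them without Ang II (15.5 to 17.1), 31.8% at 3 h (30.9 to 32.7) and 42.2% at 1 h. The most read of them is shown with the loop in capitals. The arm lies at chr5:108714906-108714927 on the minus strand, in a lncRNA gene.
miR-31a-5p with loop: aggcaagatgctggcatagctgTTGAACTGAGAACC
This 36-nt tag ends at the last base before the annotated start of miR-31a-3p. It had 626 reads in the control, 1599 at 3 h and 1974 at 1 h, a fold of 2.56 at 3 h (2.33 to 2.81). All tags of the 5p arm and loop had 742, 1965 and 2321 reads, which is 8.89%, 19.2% and 23.1% of the reads of the 5p arm, and 83.9% of them ended at that base. The plain 22-nt form of miR-31a-5p had 2280 reads in the control, 2431 at 3 h and 1989 at 1 h, and the 23-nt form 2033, 2071 and 1746, with folds of 1.07 (1.01 to 1.13) and 1.02 (0.959 to 1.09). The form with an untemplated A stood at 0.854 (0.757 to 0.963) and the 23-nt form with AG added at 0.401 (0.329 to 0.488).

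Of 263 hairpins with both arms and a loop, 4 had 20 such reads. In Mir143 the 34-nt tag that ends just before the 3p arm had 557 reads in the control, 437 at 3 h and 436 at 1 h, a fold of 0.786 (0.692 to 0.892). A similar tag was therefore lower in one hairpin and higher in the other. In Mir21 the tags of the 5p arm and loop had 41 and 36 reads. In Mir365b the tags counted are of the length of a mature miRNA and come from a short annotated 5p arm.

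miR-22-3p had the next largest change of the 3' end, 0.62 nt, and its long tags were 6.95% of its control reads (6.61 to 7.30), 9.94% at 3 h (9.50 to 10.4) and 5.99% at 1 h. Most of these were a tag that runs on into another miRNA, shown with that part in capitals.
miR-22-3p joined to miR-21-5p: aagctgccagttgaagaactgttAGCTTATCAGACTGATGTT
The 19 bases in capitals are bases 2 to 20 of miR-21-5p. The t before them fits both the miR-22 hairpin and the first base of miR-21-5p, so the join may include that base too. The tag is 42 nt long, the longest length in the files, and had 1236 reads in the control, 1578 at 3 h and 799 at 1 h. miR-21-5p itself is the second most read arm, and tags of miR-21-5p that run on into another copy of it had 48, 76 and 41 reads. No other pair of arms was joined in 20 reads. Whether the join arose in the cell or in the library was not tested.

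Other changes of the 3' end were small. miR-3473 moved by 0.52 nt, miR-222-3p by 0.16 nt and miR-27b-3p by 0.10 nt outwards. miR-214-3p moved by -0.28 nt, miR-143-5p by -0.27 nt, miR-192-5p by -0.15 nt, miR-27b-5p by -0.12 nt and miR-146b-5p by -0.08 nt.

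**Figure D4:**
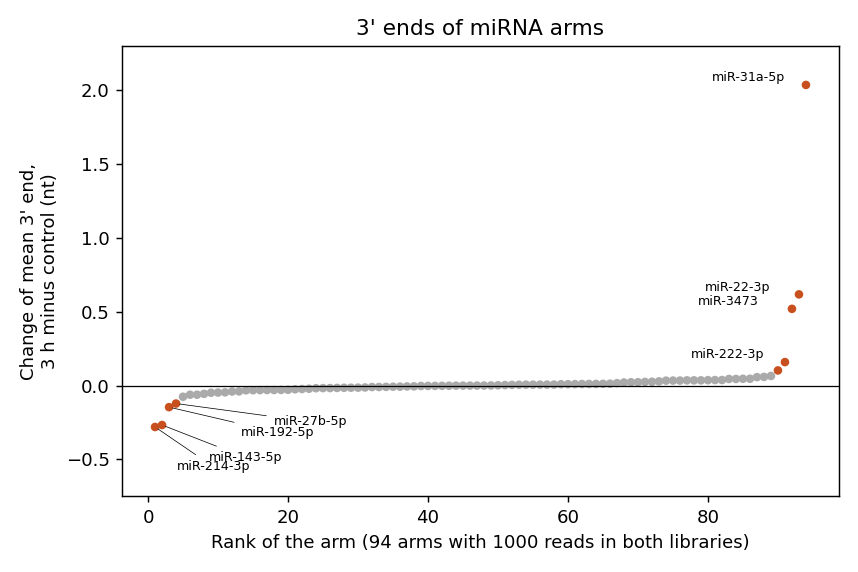
Change of the mean 3' end at 3 h against the control (y axis, nt) for 94 arms with 1000 reads in both libraries, in rank order (x axis). Orange points are arms moved by 0.1 nt or more; miR-31a-5p stands apart at 2.04 nt.

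Last bases that differ from the hairpin were scored as tails of 1 to 3 nt on the 81 arms whose hairpin sequence reaches beyond them. A tag did not have to be longer than annotated for this. A form of miR-181a-5p with the annotated length but G as its last base, for example, scored as tailed. Bases misread near the 3' end would thus be scored as tails too. Their part in the tail shares was not tested. The share with a tail changed by a median of -0.08 percentage points, and the middle 80% of arms lay between -1.997 and 1.28. miR-191a-5p had the largest gain, with 31.3% tailed in the control (30.9 to 31.8), 36.04% at 3 h (35.5 to 36.6) and 33.1% at 1 h. The gain was in A tails, which went from 25.6% (25.2 to 26.03) to 31.1% (30.6 to 31.6). miR-345-3p had the largest loss, from 46.3% (43.9 to 48.6) to 39.7% (37.2 to 42.3), with U tails going from 40.5% (38.3 to 42.9) to 34.0% (31.6 to 36.6). miR-214-3p went from 57.0% (54.4 to 59.5) to 50.7% (47.8 to 53.6) and miR-125b-1-3p from 62.2% (59.9 to 64.4) to 56.3% (54.0 to 58.5). miR-31a-5p went from 20.9% to 15.02% and miR-185-5p from 29.6% to 25.8%. In miR-31a-5p the reads with the loop gained share, while its forms with A and AG added had folds of 0.854 and 0.401. The part of each in the change was not tested. Smaller gains were in miR-652-3p (48.8% to 51.5%), miR-1839-5p (14.8% to 17.1%), miR-146a-5p (8.96% to 11.1%) and miR-365-3p (7.45% to 9.13%). Over all reads of arms the tailed share was 19.1% and 20.4%, but without miR-143-3p, which carries most U tails, it was 9.28% and 9.12%.

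The 5' ends set the seed, and the annotated start gained share at 3 h in most arms, by a small amount. The share of reads with the annotated start was larger in 72 of 94 arms, with a median change of 0.25 percentage points. The largest gains were in miR-345-3p, from 41.1% (38.8 to 43.4) to 45.4% (42.8 to 48.0), and miR-29b-3p, from 82.3% (80.6 to 83.9) to 85.9% (84.7 to 87.1). Next came miR-140-3p (51.5% to 53.6%), miR-101a-3p (51.6% to 53.4%) and miR-185-5p (97.3% to 99.03%). The annotated start is not always the main one. The main start of miR-345-3p lay 1 base further in, with 58.3% untreated and 54.2% after 3 h. How concentrated the starts of each arm were was not tested. The largest losses were in miR-214-3p (53.9% to 51.4%), miR-1839-5p (88.4% to 85.9%), miR-30a-3p (70.7% to 69.2%), miR-3473 (80.3% to 79.1%) and miR-221-3p (96.5% to 95.3%). Over all arm reads the annotated start made up 94.1% in the control, 95.1% at 3 h and 95.03% at 1 h.

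By length, the 3 h library held fewer long reads. Tags of 20 to 24 nt, the size of miRNAs, made up 83.0% of reads in the control, 87.1% at 3 h and 85.7% at 1 h. The class of 30 to 35 nt made up 4.04%, 2.20% and 3.71%, a fold of 0.545 at 3 h (0.543 to 0.548), the lowest of all classes. The classes of 25 to 29 nt, 36 to 41 nt and 42 nt had folds of 0.802, 0.694 and 0.794, and that of 18 to 19 nt 0.889. Tags of 16 to 17 nt made up 1.03% and 1.14%, a fold of 1.11 (1.10 to 1.12). Of the reads of 30 to 35 nt, those of miRNA arms made up 0.0143% of the control library and 0.0154% at 3 h, so the fall lay in tags given to no arm.

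**Figure D5:**
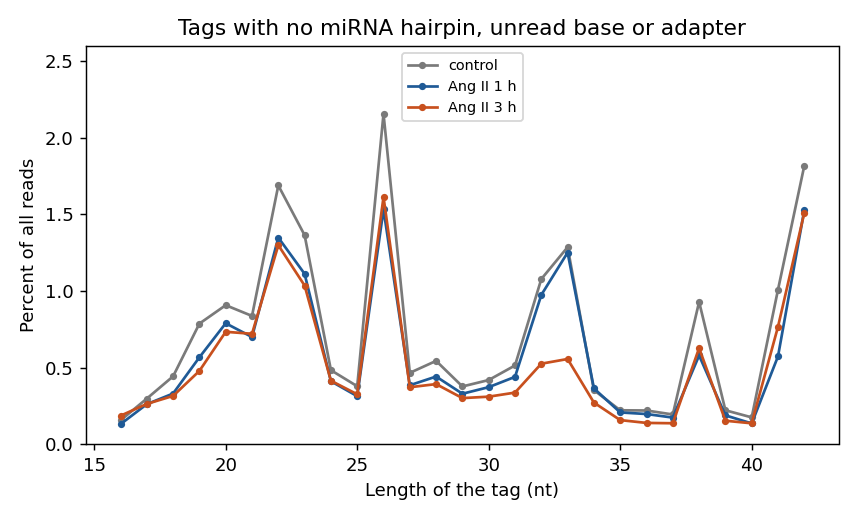
Percent of all reads (y axis) at each tag length (x axis, nt) for tags with no match to a miRNA hairpin, no unread base and no adapter, in the control (grey), at 1 h (blue) and at 3 h (orange), 1 library each. At 32 and 33 nt the 3 h line lies well under the other 2.

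Tags given to no arm had no name in the files. With 100 reads in the higher library there were 3230 of them, of which 225 were past 1.5-fold higher at 3 h (6.97%) and 945 lower (29.3%). Scaled to the reads given to no arm, 572 were higher and 622 lower. By content, 1176 were close to a miRNA hairpin (87 higher, 159 lower), 71 held adapter (38 higher, 29 lower), 32 had an unread base (11 higher, 17 lower) and 1951 were none of these (89 higher, 740 lower). Reads with an unread base made up 0.352% of the control library and 0.127% at 3 h, and the part of read quality in these counts was not tested. The last class as a whole, counted over all its tags, made up 19.3% of reads in the control, 14.1% at 3 h and 15.6% at 1 h. When its 1951 tags were joined wherever they share 16 bases, they formed 344 groups, of which 97 were past 1.5-fold lower (28.2%) and 12 higher (3.49%), with 265 below 0 and a median log2 fold of -0.31.

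The 4 most read groups and 2 smaller ones, chosen after their values had been seen, are shown by their most read tag. Groups 5 and 6 rank 13 and 8 by reads. The groups passed over had folds from 0.508 to 1.06, with those of rank 5, 6 and 7 at 0.920, 0.717 and 0.952. From general knowledge the first begins like 5.8S ribosomal RNA, the fourth like part of 5S ribosomal RNA and the fifth like tRNA-Glu, the 5' part of which is a frequent small RNA. No reference used here holds these RNAs, so the names were not checked.
group 1: cgactcttagcggtggatcactc
group 2: agcctgtgatgaattcaatttctgac
group 3: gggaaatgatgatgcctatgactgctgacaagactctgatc
group 4: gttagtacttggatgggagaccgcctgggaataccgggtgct
group 5: tccctggtctagtggttaggattcggcgc
group 6: ccccgggggccgggcggcg
Group 1 held 404 tags and 369870 reads in the control, 177160 at 3 h and 286157 at 1 h, a fold of 0.480 at 3 h (0.477 to 0.483). Group 6 had 39554, 12320 and 23241 reads, a fold of 0.312 (0.306 to 0.318), and all 9 of its tags were past 1.5-fold lower. Group 5 had 18809, 11585 and 14013 reads, a fold of 0.617 (0.603 to 0.631). Groups 2 and 3, whose tags hold the letters TGATGA and CTGA as C/D box small nucleolar RNAs do, had folds of 0.724 (0.720 to 0.728) and 0.695 (0.690 to 0.700). Group 4 stood near the control with 94918, 89213 and 91644 reads, a fold of 0.942 (0.933 to 0.9502), and its most read tag at 1.05 (1.04 to 1.07). The summed folds of the 2 groups that begin like ribosomal RNA thus differed, with group 1 below 0.5 of the control and group 4 close to it. By single tags group 4 was lower too, with 48 tags past 1.5-fold lower and 8 higher. Its median log2 ratio over tags was -0.41, against -1.30 in group 1.

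Within group 1 the fold differed between lengths, with no single order. Tags of 33 nt had 101943 reads in the control, 23614 at 3 h and 86992 at 1 h, a fold of 0.232 (0.229 to 0.235). Those of 32 nt had a fold of 0.316 (0.311 to 0.320), while those of 23 nt stood at 0.539 (0.532 to 0.547), those of 25 nt at 0.954 (0.927 to 0.981), and those of 16 nt at 3.03 (2.90 to 3.16). Next to the latter, tags of 17 to 20 nt had folds from 0.548 to 0.798. Among the longest, those of 37, 39, 40 and 41 nt stood above the control, at 1.14, 1.42, 1.33 and 1.48, and those of 38 nt at 0.673. The 33-nt tags made up 27.6% of the group in the control, 13.3% at 3 h and 30.4% at 1 h. The most read tags of 33 nt and of 32 nt were each a pair that differs in 1 base, shown in capitals, with positions counted from 1 at the 5' end of the tag.
33 nt, first: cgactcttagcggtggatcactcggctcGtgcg
33 nt, second: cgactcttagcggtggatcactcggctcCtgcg
32 nt, first: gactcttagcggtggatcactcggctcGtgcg
32 nt, second: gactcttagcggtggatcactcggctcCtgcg
The first 33-nt tag had 27838 reads in the control, 10958 at 3 h and 25279 at 1 h, a fold of 0.394 (0.386 to 0.403). The second, with the change G29C, had 28196, 5115 and 23123 reads, a fold of 0.182 (0.176 to 0.187). In the 32-nt pair the first had a fold of 0.470 (0.459 to 0.482) and the second, with G28C, 0.251 (0.243 to 0.259). Within each pair the tag with C was slightly more frequent than its partner in the control and the rarer one at 3 h. What the second tag is, a variant copy or a change made in the library, was not tested.

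Some single tags outside hairpins, adapters and unread bases changed far more than the groups shown. The largest rise was in the first tag shown, chosen after its values had been seen, which lacks the last base of the second.
40 nt: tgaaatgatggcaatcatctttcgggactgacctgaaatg
41 nt: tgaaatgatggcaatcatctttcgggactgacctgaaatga
The first had 11 reads in the control, 1058 at 3 h and 7 at 1 h, a fold of 96.4 (53.6 to 194), and the second 4288, 4975 and 3703, a fold of 1.16 (1.12 to 1.21). Of the 10 largest rises, 4 were 42-nt tags with no read in the control or at 1 h, and each of them ended in AT. Another 3 were pieces of group 3, the most read of which, of 26 nt, had 94, 1118 and 49 reads (fold 11.9, 9.65 to 14.9). The most read of the 4 tags ending in AT had 336 reads at 3 h. The 40-nt tag that lacks only its last AT had 2527 reads in the control, 1316 at 3 h and 2164 at 1 h. The 3' adapter named in the labels begins with AU, and the part of adapter trimming in these rises was not tested. Of the 10 largest falls, 8 were 33-nt tags of group 1. The lowest of these on the log2 scale had 631 reads in the control, 16 at 3 h and 621 at 1 h, a fold of 0.0254 (0.0144 to 0.0416).

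Some short pieces were also higher. The 17-nt tag gggaaatgatgatgcct had 68 reads in the control, 364 at 3 h and 39 at 1 h, a fold of 5.36 (4.13 to 7.05), while its most read 41-nt tag had a fold of 0.651 (0.643 to 0.659). The 16-nt piece of group 1, cgactcttagcggtgg, had 2384, 8034 and 1954 reads, a fold of 3.38 (3.22 to 3.54). Some 16-nt and 17-nt pieces of miRNAs were higher as well. The tag tgaggtagtaggttgt, with which several let-7 members begin, had 132, 708 and 80 reads (fold 5.37, 4.46 to 6.52). The most read 22-nt tag that begins with it, of let-7c-5p, had a fold of 0.864. The tag tgagaactgaattccat of miR-146 had 189, 1123 and 164 reads (fold 5.95, 5.10 to 6.98), against 1.24 (1.21 to 1.27) for its longer tag, of miR-146b-5p. These were exceptions, since of 102 tags of this length 11 were past 1.5-fold higher and 13 lower, with a median log2 ratio of -0.09. Where the longer tag goes on with AT, 4 of 7 were higher and 1 lower (median log2 ratio 1.52). Where it goes on with A and another base, 5 of 20 were higher and 0 lower, and where it goes on with a base other than A, 2 of 75 were higher and 12 lower. The 3' adapter named in the labels also begins with AU, and the part of adapter trimming was not tested. In the 1 h library the 4 short tags named had fewer reads than in the control.

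Tags with the same first 18 bases were then counted once, by the most read of them. Some of the extremes were close copies of abundant miRNAs. How common such copies are among all tags outside hairpins, adapters and unread bases was not counted. Of the 10 largest rises that remained outside hairpins, adapters and unread bases, 4 lay within 2 or 3 changes of miR-143-3p and 1 of miR-21-5p. Of the 10 largest falls counted in this way, 3 lay within 2 or 3 changes of let-7c-5p. The largest of these falls, at changes G2T, G5T and G15T from let-7c-5p, had 193 reads in the control, 5 at 3 h and 6 at 1 h, a fold of 0.0260 (0.00833 to 0.0616). Another of the 10 falls, aagatgaagccctgtagctc, had 228 reads in the control, 24 at 3 h and 113 at 1 h. It resembles miR-143-3p read from its second base, a shifted start that the count of copies did not cover. Counted over the first 18 bases of the most read form of 79 arms, single changes of A to C had a rate of 4504 per 1000000 bases in the control and 4260 at 3 h, and those of G to T 3903 and 3303. The rate was lower at 3 h in 10 of 12 kinds of change, with folds from 0.792 for A to T to 1.02 for T to A.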

How the data were processed

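The files as deposited list, for each sample, the tags (distinct sequences) and their read counts, which were not normalized. Per the submitters' processing notes, Novoalign and the build rn4 were named, with no role for either, and trimming and filters are not given in the sources used here. Per the labels' protocols, RNA of 17 to 52 nt was selected. Tags ran from 16 to 42 nt. A row without a sequence (7.07% of control reads, 5.13% at 3 h, 5.66% at 1 h) was left out. Depth was 13119417 to 14395539 reads, and the level of 3 counts was about 0.21 to 0.23 RPM.

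Of 692 distinct arms in the RefSeq table (724 mature entries, 419 hairpins), 396 had reads and 289 had 20. Tags that fit several arms equally were shared equally. Arms and tags were called at 1.5-fold on log2(RPM + 1) with 100 reads in the higher library. No test of conditions was made. Ratios have exact conditional binomial and shares Clopper-Pearson intervals at 95%. Named were the 10 largest rises and falls past that limit (fewer passed), the 10 most read arms, the measured arms of 5 lists, the 5 largest changes each way of ends, tails and shares, and the leading unnamed tags, those with the same first 18 bases counted once by the most read. Unnamed tags with adapter, an unread base or a sequence close to a hairpin were given by counts, and the rule was run on the rest. Members and lists were chosen with earlier results of these data known. Alternatives were other scales and read minimums, a 2-fold limit, a pseudocount of 10, stricter matching and the 1 h library as reference. Steps were tested on simulated data. Python 3.11.15, numpy 2.4.6, scipy 1.17.1, matplotlib 3.10.9, R 4.3.3 and edgeR 4.0.16 (TMM factors alone) were used.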

Additional observations from a re-analysis of the deposited data

How the results depend on the processing

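Of 195 values of the 15 called arms under 13 alternatives, 192 kept their sign. The exceptions were miR-221-5p (log2 ratio -0.51) and miR-466b-2-3p (0.19) when only the RefSeq mature sequence was counted, and miR-21-3p (-0.0048) against the 1 h library. Against that library 4 arms were higher and 0 lower, the 0 being a count of fold limits with no test; the higher ones shared with the control comparison were 2. Scaling to arm reads moved the median of all arms from -0.05 to -0.16, and 5 arms were then higher and 17 lower. With TMM factors the median was -0.02, with 10 higher and 8 lower. Median-of-ratios factors gave 11 and 8. All 8 lower arms were kept under these 3 scales, and 5, 7 and 7 of the higher ones.

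With 20 reads 15 arms were higher, with 300 reads 5 were lower, a pseudocount of 10 left 4 higher and 4 lower, and a 2-fold limit 4 and 1. With 300 reads 14 arms had a moved 3' end (9 with 1000 reads) and 31 a moved 5' start (16), and without tailed tags 5 had a moved 3' end; these limits were 0.1 nt and 1 percentage point. With 300 reads of the rarer arm, 1 hairpin had a smaller share of it.

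Of distinct tags at 3 h, 48.8% were of 20 to 24 nt and 15.8% of 30 to 35 nt. Among reads given to no arm these classes made up 49.7% and 10.0%.

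Unnamed tags past the limit numbered 20 higher and 96 lower with 1000 reads, 93 and 479 with a pseudocount of 10, and 93 and 487 at 2-fold. Scaled to reads given to no arm they numbered 572 and 622, so the excess of lower tags depends on that scale. Summed by their first 18 bases, 112 were higher, and against the 1 h library 487 were lower. Without tags with adapter, an unread base or a hairpin match 89 were higher. Settings chosen after seeing the data were that one, leaving out tags of 30 nt or more, counting the most read tag alone and leaving out tailed tags. No paired analysis was possible because each group has 1 library.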

Other observations

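Hairpins within 10 kb of each other on 1 strand, which can come from 1 transcript, gave arms that lay close together in some clusters and far apart in others. All 4 tested arms of the Mir143 and Mir145 cluster lay within 1.5-fold, but miR-143-3p had a log2 ratio of 0.31 and the lowest of the other 3 lay at -0.28. In the cluster of Mir322, Mir351, Mir503, Mir542 and the miR-450 hairpins, 9 tested arms ran from -0.36 to 0.51. In the cluster of Mir106b, Mir25 and Mir93, which lies in an intron of the replication gene Mcm7 in mammals, 4 arms ran from -0.48 to 0.16. In the cluster of Mir125a, Mir99b and Mirlet7e, 5 arms ran from -0.70 to 0.09. The 3 tested arms of Mir199a2 and Mir214 ran from -0.39 to -0.11, and reads of the miR-199a arms can also come from another hairpin.

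Among families that share a seed, the 5 tested arms of the miR-15/16 seed ran from -0.29 to 0.16 and the 9 of the let-7 seed from -0.46 to 0.24. Both members of the seed of miR-25-3p and miR-92a-3p stood at -0.34. None of these values has a replicate check.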
